A study of Mus musculus with 7 samples.

Results

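The genes described here are 33 listed genes of fatty acid oxidation and ketogenesis, taken by name: regulators, the carnitine shuttle, the mitochondrial and peroxisomal oxidation enzymes, electron transfer, ketone synthesis and targets of the receptor PPARα. Of these, 30 were measured, out of 16819 genes with 1 name in the deposited table, and each was read from the probe set with the highest mean. Acsl1, Cpt1b and Hadhb were not analysed here. Whole liver RNA came from male mice that were Dicer1 fl/fl, in other words with both copies of the microRNA-processing ribonuclease gene floxed, with mixed 129S4 and C57BL/6 ancestry. AAV8-Ttr-Cre, a liver-tropic virus with Cre under the transthyretin promoter of hepatocytes, was injected at 8 to 10 weeks of age. The 3 control arrays are labelled 0 weeks, and 2 arrays each were made at 2 and at 4 weeks after the virus. All 7 mice carried the floxed alleles and had been fasted for 4 hours. The design has neither a Cre-free virus nor controls of the later times, so effects of Dicer1 loss, of the virus, of Cre and of elapsed time cannot be told apart in any comparison. The promoter is meant to confine Cre to hepatocytes, and Dicer1 was not measured by cell type. In whole tissue, fewer cells of a type and less RNA per cell also cannot be told apart.

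Between meals and in fasting, the liver draws fatty acids from fat tissue and burns them for energy. Long chains cross into mitochondria as carnitine esters, are shortened in a repeating spiral of dehydrogenation, hydration, oxidation and thiolysis, and leave as acetyl-CoA, much of which is turned into ketone bodies for other organs. Peroxisomes shorten very long and branched chains first, and microsomal Cyp4a enzymes start an omega-oxidation route. The nuclear receptor PPARα, with its coactivator PGC-1α and the secreted hormone FGF21, switches many of these genes on in the fasted liver.

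Dicer1, the targeted gene, read 8.73, 8.71 and 8.58 (log2 signal) in the controls, 8.03 and 7.79 at 2 weeks and 7.97 and 8.05 at 4 weeks. Its level was lower by 0.71 on the log2 scale after Cre, the mean of both times against control (SE 0.07, limma adjusted p = 0.00675). Hepatocyte markers, a check of the labelled tissue, were bright on every array, and their mean log2 signal (7 of 8 measured) was 13.81 to 13.85 in controls, 13.71 to 13.73 at 2 weeks and 13.72 to 13.76 at 4 weeks. Stellate cell markers (7 of 7 measured) had means of 8.37 to 8.44, 8.58 to 8.74 and 8.54 in the same order. Both sets did not overlap between control and Cre arrays, and their part in the results below was not tested. Among hepatocyte markers the difference after Cre was -0.62 for Tat, and the other 6 differed by 0.10 or less in size. Of these, Apob lay above the controls on every Cre array. The means of macrophage (8 of 8 measured), lymphocyte (5 of 7), adipocyte (3 of 6) and skeletal muscle markers (7 of 7) overlapped between the controls and the 4 Cre arrays. Endothelial (7 of 7) and bile duct means (4 of 6) overlapped the controls at 2 weeks. At 4 weeks they lay above them, at 9.08 to 9.23 against 8.95 to 9.01 and at 6.82 to 6.92 against 6.68 to 6.77. The bile duct markers were uneven at 4 weeks, with differences of 0.43 for Sox9, 0.11 for Krt19, 0.08 for Krt7 and -0.003 for Epcam. After Cre, Tat among the hepatocyte markers (-0.62, adjusted p = 0.0334), Pdgfrb of stellate cells (0.31, adjusted p = 0.0238) and Sox9 of bile ducts (0.37, adjusted p = 0.0298) passed the test. At 4 weeks these were Clec4g of endothelium (0.60, adjusted p = 0.0438) and Sox9 (0.43, adjusted p = 0.0401), and at 2 weeks there were none. A log2 scale has no zero, so no marker could be called absent.

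Among these 30 genes, the pyruvate dehydrogenase kinase Pdk4 rose and the peroxisomal membrane protein Pex11a fell at both times, and the thioesterase Acot2 rose at 4 weeks. The 9 measured members of the mitochondrial spiral did not pass, and after Cre they differed from control by 0.29 log2 units or less. At 2 weeks, 1 member was higher and 1 lower at an adjusted p under 0.05 (6.67% of the 30), against 3.46% of all genes higher and 2.47% lower (5.93% in either direction). At 4 weeks, 2 were higher and 1 lower (10% of 30), against 5.15% and 4.62% of all genes (9.77% in either direction). After Cre, 1 was higher and 1 lower (6.67%), against 6.79% and 6.12% of all genes (12.9% in either direction). At an unadjusted p under 0.05 there were 7 members at 2 weeks, 13 at 4 weeks and 12 after Cre, against 23%, 24.8% and 27.4% of all genes. Without testing, 4 members were above and 6 below every control array on all 4 Cre arrays, where 12.9% of all genes were higher and 12.2% lower in this way (25.1% in either direction). At 2 weeks 6 members were above and 6 below every control, against 17.3% and 17.5% of all genes (34.9%), and at 4 weeks 8 and 9, against 21.6% and 18.2% (39.8%). The median member difference after Cre was 0.04 on the log2 scale, against 0.00 for all genes. In size it was 0.17, against 0.09 for all genes.

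**Figure D1:**
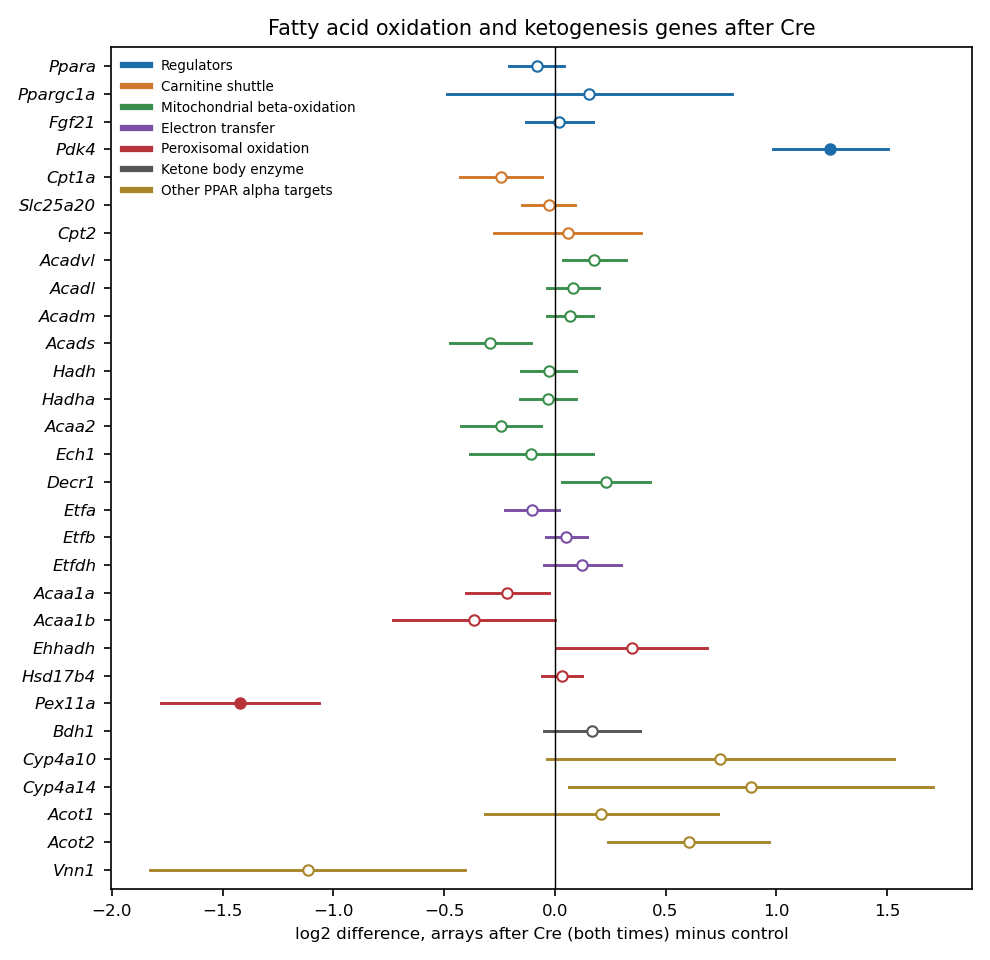
Log2 difference after Cre (mean of both times, 4 arrays, minus 3 control arrays) of the 30 measured genes, ordered by role. Points are the fitted differences, bars their 95% intervals, and filled points passed an adjusted p of 0.05. Pdk4 at 1.24 and Pex11a at -1.42 stand away from the carnitine shuttle and mitochondrial spiral genes, whose intervals all lie within 0.5 log2 units of no change.

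The 95% interval of the fitted difference was computed gene by gene without adjustment, so it gives a range for 1 gene and not for the set. After Cre it covers the mean of both times and not each time alone. After Cre it lay within 0.5 log2 units (1.41-fold) on either side of 0 for 20 of 30 members (66.7%), against 78.7% of all genes. These included all 9 measured enzymes of the mitochondrial spiral, all 3 of the carnitine shuttle and all 3 of electron transfer. They included 0 of the 5 members grouped here as PPARα targets. That group leaves out members placed under another role, such as Pdk4, Pex11a, Cpt1a and Ehhadh. An interval within 0.5 can still exclude 0, as for Acads (-0.48 to -0.11) and Acadvl (0.03 to 0.32) after Cre. At 2 weeks and again at 4 weeks, 7 of the 9 mitochondrial enzymes had an interval within 0.5. A difference under 0.25 in size was found for 21 of 30 members (70%), against 77.9% of all genes.

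Pdk4, a mitochondrial kinase that switches off pyruvate dehydrogenase and so spares glucose when fat is burned, read 7.17, 6.99 and 7.14 in the controls, 8.72 and 8.40 at 2 weeks and 8.25 and 8.01 at 4 weeks. All 4 Cre arrays lay above all controls, and both arrays at 4 weeks lay below both at 2 weeks. The rise was 1.46 (log2, SE 0.13, 2.75-fold, limma adjusted p = 0.00851) at 2 weeks and 1.03 (SE 0.13, 2.04-fold, adjusted p = 0.0134) at 4 weeks. After Cre it was 1.24 (SE 0.11, 2.37-fold, adjusted p = 0.00452), a call that held with any 1 of the 7 arrays left out. The call at 2 weeks was lost without control replicate 3 (adjusted p = 0.0573). At 4 weeks it was lost without control replicate 2 (0.0581) or 3 (0.0596), or without replicate 1 (0.0810) or 2 (0.0644) of that time.

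The other regulators did not pass. Ppara, the receptor itself, read 10.70, 10.77 and 10.70 in controls, 10.75 and 10.72 at 2 weeks and 10.61 and 10.46 at 4 weeks. Its arrays overlapped those of the controls at 2 weeks and lay just below them at 4 weeks, where the difference was -0.19 (95% interval -0.33 to -0.04, adjusted p = 0.122). Fgf21 was dim, with a mean of 6.09, under the 6.17 that set the dimmest genes. It lay between 5.97 and 6.17 on all 7 arrays, and read 6.10 on control replicate 1 and both arrays of 4 weeks. After Cre its interval ran from -0.13 to 0.17, and a signal this dim may miss a change. For Ppargc1a, which encodes PGC-1α, the arrays of each group were wide apart, and the interval of -0.49 to 0.80 leaves a change of either sign possible.

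Pex11a, a peroxisomal membrane protein that takes part in the growth and division of peroxisomes, read 10.61, 10.56 and 10.54 in the controls, 9.59 and 8.99 at 2 weeks and 8.94 and 9.08 at 4 weeks. Controls lay close together, and every Cre array was lower by nearly a whole log2 unit or more. It fell by 1.28 on the log2 scale (SE 0.17, 2.43-fold lower, limma adjusted p = 0.0217) at 2 weeks and by 1.56 (SE 0.17, 2.95-fold lower, adjusted p = 0.0109) at 4 weeks. After Cre the difference was -1.42 (SE 0.14, 2.68-fold lower, adjusted p = 0.00647), and this call held with any 1 array left out. The call at 2 weeks was lost without control replicate 1 (0.0799), 2 (0.0896) or 3 (0.0920) and without either array of 4 weeks (0.0629 each). At 4 weeks it was lost without control replicate 2 (0.0525) or 3 (0.0542), or without replicate 1 (0.0784) or 2 (0.0724) of that time.

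**Figure D2:**
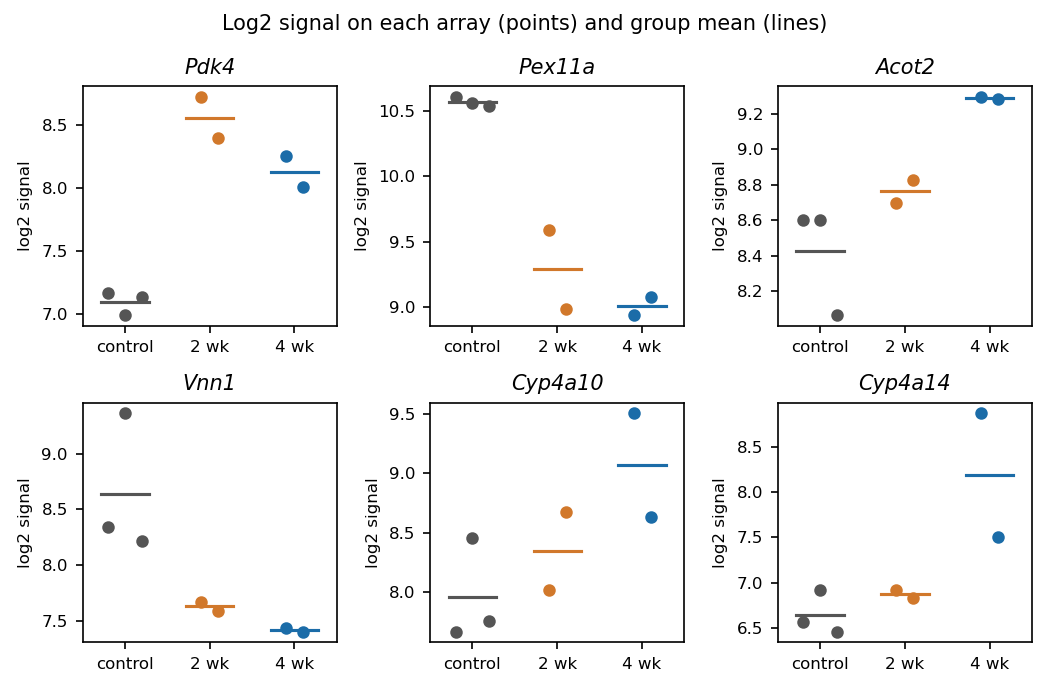
Log2 signal of Pdk4, Pex11a, Acot2, Vnn1, Cyp4a10 and Cyp4a14 on each array at 0, 2 and 4 weeks; points are arrays and horizontal lines group means. Pex11a falls from 10.54 or more in controls to 9.59 or less after Cre, Pdk4 rises from 7.17 or less to 8.01 or more, and Cyp4a14 spreads from 7.50 to 8.87 at 4 weeks.

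The other peroxisomal members are the thiolases Acaa1a and Acaa1b, the bifunctional enzyme Ehhadh and the multifunctional enzyme Hsd17b4. None passed after Cre, where their differences ran from -0.37 to 0.35. Acaa1a lay below all controls on every Cre array (-0.21, adjusted p = 0.136), and Hsd17b4 was the most even, at 12.17 to 12.27 on all arrays. Ehhadh, named after its values were seen, read 10.98, 11.26 and 11.05 in controls, 11.04 and 11.55 at 2 weeks and 11.60 and 11.59 at 4 weeks. Its difference at the later time was 0.50 (SE 0.16, adjusted p = 0.131), and replicate 1 of 2 weeks stayed among the controls. Without that array Ehhadh passed after Cre (0.48, adjusted p = 0.0354), and without either array of 2 weeks it passed at 4 weeks (adjusted p = 0.0486). Acaa1a and Acaa1b are near-identical copies, so a probe may read both and their split is uncertain.

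The promoters of the 3 genes that passed and of Cpt1a, the gatekeeper of mitochondrial entry, are shown so that genes that moved can be set beside one that did not pass. Each is the 250 bases before the start of the RefSeq gene (GRCm38.p6), 5′ to 3′ on the gene's strand. Capitals mark CCAAT (the CCAAT box) or AGGTCA (the core motif of nuclear receptors such as PPARα), on either strand. The stretches lie at chr6:5496279-5496528 (minus strand) for Pdk4, chr12:83987611-83987860 (plus strand) for Acot2, chr7:79743132-79743381 (minus strand) for Pex11a and chr19:3323051-3323300 (plus strand) for Cpt1a.
Pdk4: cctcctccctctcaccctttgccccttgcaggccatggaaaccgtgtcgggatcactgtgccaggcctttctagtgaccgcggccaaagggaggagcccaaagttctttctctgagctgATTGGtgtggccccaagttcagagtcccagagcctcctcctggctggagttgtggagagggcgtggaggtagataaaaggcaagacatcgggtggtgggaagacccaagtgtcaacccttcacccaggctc
Acot2: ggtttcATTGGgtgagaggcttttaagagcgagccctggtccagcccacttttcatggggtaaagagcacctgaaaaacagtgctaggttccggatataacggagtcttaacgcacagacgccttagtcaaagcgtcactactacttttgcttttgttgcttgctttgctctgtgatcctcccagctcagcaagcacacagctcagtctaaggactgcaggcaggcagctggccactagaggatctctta
Pex11a: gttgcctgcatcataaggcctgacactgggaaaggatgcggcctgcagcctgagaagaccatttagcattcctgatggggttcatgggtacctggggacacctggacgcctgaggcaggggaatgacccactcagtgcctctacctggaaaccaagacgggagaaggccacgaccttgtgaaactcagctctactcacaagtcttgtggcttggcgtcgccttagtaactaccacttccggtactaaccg
Cpt1a: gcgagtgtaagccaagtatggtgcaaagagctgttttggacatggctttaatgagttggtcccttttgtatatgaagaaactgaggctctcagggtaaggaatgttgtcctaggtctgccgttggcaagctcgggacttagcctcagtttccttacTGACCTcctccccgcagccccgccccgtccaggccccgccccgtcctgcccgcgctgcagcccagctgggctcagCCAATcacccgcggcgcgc
Pdk4 and Acot2 each hold 1 CCAAT match and no AGGTCA, Cpt1a holds 1 of each, and Pex11a holds neither. CCAAT was found in 11 of the 24 member genes with a window and in 33.8% of all 32851 windows. AGGTCA was found in 3 of 24 (Acadm, Acadvl and Cpt1a) and in 14.0% of all windows. The direct repeat of AGGTCA with a spacer of 1 base (DR1, searched on both strands), to which PPARα binds with its partner RXR and which contains the core motif, was in 0 of 24 and in 0.0335% of all windows. With AGGNCA in place of AGGTCA these were 0 of 24 and 0.338%. The E-box CACGTG was in 1 of 24 (Fgf21) and 6.02% of windows. These matches describe the letters of a short window and no more.

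In the carnitine shuttle, Cpt1a joins long-chain fatty acids to carnitine at the outer mitochondrial membrane and sets the pace of oxidation. It read 12.10, 12.03 and 11.89 in controls, 11.84 and 11.68 at 2 weeks and 11.68 and 11.84 at 4 weeks. Every Cre array lay below every control, though the nearest arrays were close, and the difference after Cre was -0.24 (SE 0.07, 95% interval -0.43 to -0.06, 1.18-fold lower, adjusted p = 0.0975). The carrier Slc25a20, which swaps carnitine esters across the inner membrane, and Cpt2, which takes the carnitine off again, differed after Cre by -0.03 and 0.06 with overlapping arrays.

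The mitochondrial spiral was measured through the acyl-CoA dehydrogenases Acadvl, Acadl, Acadm and Acads, which act on very long, long, medium and short chains, through Hadha and Hadh, the thiolase Acaa2, and Ech1 and Decr1, which handle unsaturated chains. None of the 9 passed in any comparison, and after Cre their differences ran from -0.29 to 0.23. By chain length, the dehydrogenases differed after Cre by 0.18 for Acadvl (adjusted p = 0.111), 0.08 for Acadl, 0.07 for Acadm and -0.29 for Acads (adjusted p = 0.0587). On every Cre array Acadvl and Acadm lay above all controls, and Acads and Acaa2 below them. Acads and Acaa2, which had the smallest adjusted p of the 9 after Cre, are given in full and were chosen after their values were seen. Acads read 10.78, 10.85 and 10.88 in controls, 10.65 and 10.42 at 2 weeks and 10.64 and 10.47 at 4 weeks. Acaa2 read 13.10, 13.09 and 13.07 in controls, 12.97 and 12.71 at 2 weeks and 12.91 and 12.80 at 4 weeks, a difference of -0.24 after Cre (adjusted p = 0.0917). Both passed after Cre with quantile normalization (adjusted p = 0.0460 for Acads and 0.0442 for Acaa2) and without replicate 1 of 2 weeks (0.0342 and 0.0183). Acaa2 also passed without that array at 2 weeks (-0.38, adjusted p = 0.0282) and without either array of 2 weeks at 4 weeks (0.0498). Etfa, Etfb and Etfdh, which pass the electrons of the dehydrogenases on to the respiratory chain, differed after Cre by -0.10, 0.05 and 0.12, none past the threshold.

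Of ketone synthesis, 1 member was measured. Bdh1, the mitochondrial enzyme that interconverts acetoacetate and β-hydroxybutyrate, read 10.93, 11.06 and 10.95 in controls, 11.28 and 11.02 at 2 weeks and 11.26 and 11.04 at 4 weeks. In each Cre group 1 array lay above the controls and 1 within them. The difference was 0.17 after Cre (SE 0.09, 95% interval -0.05 to 0.39, adjusted p = 0.287).

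Among the 5 members grouped here as PPARα targets, differences ran from -1.01 to 0.39 at 2 weeks and from -1.22 to 1.54 at 4 weeks. Acot2, a mitochondrial thioesterase that frees fatty acids from CoA, read 8.60, 8.60 and 8.06 in controls, 8.70 and 8.83 at 2 weeks and 9.30 and 9.29 at 4 weeks. Both times lay above the controls, with 4 weeks above 2 weeks. The rise was 0.87 (SE 0.18, 1.82-fold, adjusted p = 0.0397) at 4 weeks, and the difference was 0.34 (adjusted p = 0.321) at 2 weeks and 0.60 (adjusted p = 0.0521) after Cre. The 4-week call held in 1 of 7 fits that left out an array, the one without control replicate 3. Without another array its adjusted p was 0.0774 (control replicate 1), 0.0842 (control replicate 2), 0.0706 (either array of 2 weeks), 0.165 (replicate 1 of 4 weeks) or 0.169 (replicate 2 of 4 weeks). Acot1, its close copy in the cytosol, ranged from 7.45 to 8.18 in controls and from 7.62 to 8.14 after Cre, and probes may not separate the 2 genes.

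Cyp4a10 and Cyp4a14, which hydroxylate the far end of fatty acids and respond strongly to PPARα activators, were higher than every control on both arrays of 4 weeks without passing in the fit to all genes. Cyp4a10 read 7.67, 8.45 and 7.76 in controls, 8.02 and 8.67 at 2 weeks and 9.50 and 8.63 at 4 weeks. Its 4-week difference was 1.11 (SE 0.38, 95% interval 0.17 to 2.04, adjusted p = 0.139), and without replicate 1 of 4 weeks it was 0.67. Cyp4a14 read 6.56, 6.92 and 6.46 in controls, 6.92 and 6.83 at 2 weeks and 8.87 and 7.50 at 4 weeks. Its 4-week difference was 1.54 (SE 0.40, 95% interval 0.56 to 2.53, adjusted p = 0.0699), and most of its size came from replicate 1 of 4 weeks, without which it was 0.86. Without replicate 2 of 4 weeks it was 2.23 and passed (adjusted p = 0.0468), as did the difference after Cre (1.23, adjusted p = 0.0346). The 4-week difference also passed when the dimmest genes were left out (adjusted p = 0.0494). The means of endothelial and bile duct markers, the latter mainly through Sox9, lay above the controls on the same arrays of 4 weeks. Their part in the levels of Acot2 and the Cyp4a genes was not tested. Cyp4a10 and Cyp4a14 belong to 1 gene family, and whether their probes also read relatives was not checked.

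Vnn1, a pantetheinase of the cell surface and a widely used PPARα target, moved the other way from Acot2, Cyp4a10 and Cyp4a14. It read 8.34, 9.36 and 8.21 in controls, 7.66 and 7.59 at 2 weeks and 7.44 and 7.40 at 4 weeks. Every Cre array lay below every control, but control replicate 2 was about a whole log2 unit above the other controls. The difference after Cre was -1.12 (SE 0.29, 95% interval -1.83 to -0.40, adjusted p = 0.0609), and at 2 and 4 weeks it was -1.01 (adjusted p = 0.156) and -1.22 (adjusted p = 0.0884). Without control replicate 2 the difference after Cre was -0.75 and passed (adjusted p = 0.0239), as it did at 2 weeks (-0.65, adjusted p = 0.0458) and 4 weeks (-0.86, adjusted p = 0.0278).

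**Figure D3:**
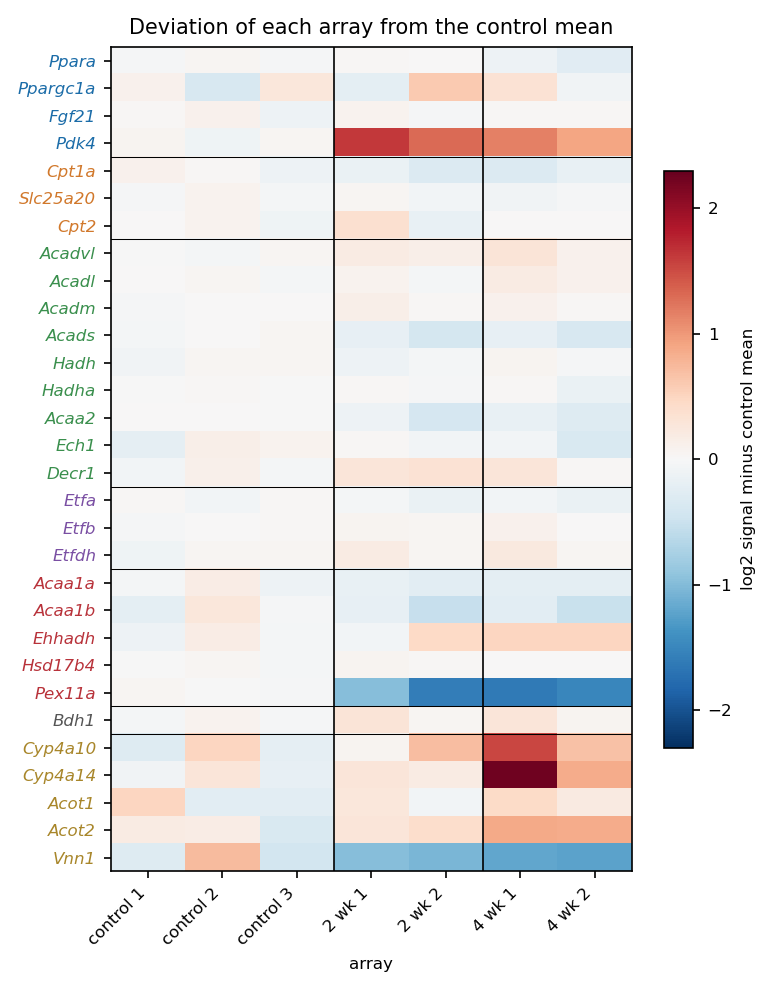
Log2 signal minus the control mean of the same gene, for the 30 measured genes in rows by role and the 7 arrays in columns. Colour gives the deviation. The mitochondrial spiral and electron transfer rows stay pale on every array. Pdk4, Pex11a, Vnn1 and, at 4 weeks, Acot2 and the Cyp4a rows carry the strong colours.

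Between 4 and 2 weeks, 0 members passed in limma, and 1 gene of all tested passed (0.00595%). An unadjusted p under 0.05 was found for 4 members (7.43% of all genes). On all arrays, 5 members were higher and 4 lower at 4 than at 2 weeks, against 15.0% and 11.6% of all genes (26.6% in either direction). The 4 with the small unadjusted p were Cyp4a14 (1.32, adjusted p = 0.587), Acot2 (0.53, adjusted p = 0.629), Pdk4 (-0.43, adjusted p = 0.577) and Ppara (-0.20, adjusted p = 0.575). With 2 arrays a time, this comparison leaves wide intervals: for Cyp4a14 it ran from 0.24 to 2.39 and for Cyp4a10 from -0.31 to 1.74.

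Around these members, 82 of 92 further genes of the pathway were measured: other oxidation and transport enzymes, ketone enzymes and transporters, regulators, and PPARα targets. After Cre, 13 were higher and 9 lower (26.8%), against 12.9% of all genes called in either direction. At 2 weeks these counts were 8 and 4 (14.6%, against 5.93% of all genes), and at 4 weeks 10 and 6 (19.5%, against 9.77%). After Cre, 40 of the 82 (48.8%) differed by under 0.25 in size, against 77.9% of all genes, and 37 (45.1%) had an interval within 0.5 on either side of 0, against 78.7%. Without control replicate 3 the counts after Cre were 3 and 1, when 3.41% of all genes were called. With the dimmest genes (mean log2 under 6.17) left out, the counts were 16 and 10, when 20.4% of the remaining genes were called. That fit also left out the dimmest of the 82. The list was put together with earlier results of these data known, so its share carries no test.

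Ketone handling had 3 of 7 measured genes higher and 1 lower after Cre (57.1%), against 6.79% of all genes higher and 6.12% lower (12.9% in either direction). As for the whole list, this share carries no test. Acat1, the mitochondrial thiolase that makes and splits acetoacetyl-CoA, read 11.65, 11.74 and 11.75 in controls, 12.11 and 12.24 at 2 weeks and 12.25 and 12.13 at 4 weeks (0.47, SE 0.06, limma adjusted p = 0.00909). Bdh2, a cytosolic short-chain dehydrogenase, read 9.44, 9.51 and 9.31, then 8.52 and 8.49, then 9.07 and 8.92 (-0.67, SE 0.06, adjusted p = 0.00607). Both calls held with any 1 array left out. Slc16a1, the monocarboxylate carrier that moves lactate and ketone bodies, read 9.48, 9.87 and 9.34 in controls, 10.46 and 10.52 at 2 weeks and 10.50 on both arrays at 4 weeks (0.93, SE 0.13, adjusted p = 0.0122). Its call was lost without control replicate 1 (0.0562) or replicate 1 (0.0563) or 2 (0.0585) of 4 weeks. Slc16a6, a relative that exports ketone bodies from hepatocytes and was named after its values were seen, read 7.03, 7.58 and 7.19, then 8.38 and 9.33, then 9.00 and 9.21 (1.72, SE 0.26, 3.29-fold, adjusted p = 0.0150). This call was lost without control replicate 1 (0.0640), 2 (0.0514) or 3 (0.0765) or replicate 1 (0.0605) or 2 (0.0692) of 4 weeks. Oxct1, which lets tissues use ketone bodies, differed by 0.27 (adjusted p = 0.503).

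Of 38 other oxidation genes, 5 were higher and 5 lower after Cre (26.3%, against 12.9% of all genes in either direction). Crot, the peroxisomal enzyme that puts shortened chains on carnitine for export to mitochondria, read 11.85, 12.17 and 12.04 in controls, 13.29 and 13.29 at 2 weeks and 13.29 and 13.28 at 4 weeks. All 4 Cre arrays were nearly equal and above the controls, at 1.27 (SE 0.08, 2.41-fold, adjusted p = 0.00254), and the call held with any 1 array left out. Pxmp4, a peroxisomal membrane protein, was higher by 1.09 (SE 0.13, adjusted p = 0.00884), which was lost without control replicate 2 (0.0506) or 3 (0.0531). Decr2, the peroxisomal counterpart of Decr1, was lower at -0.41 (SE 0.06, adjusted p = 0.0120), lost without control replicate 2 (0.0547) or 3 (0.0561). Phyh, which starts the breakdown of branched phytanic acid, differed by -0.27 (adjusted p = 0.0799). The other genes that passed, named after their values were seen, were not followed with arrays left out. Higher were Acad9 (0.59, limma adjusted p = 0.0414), Acsl5 (0.46, 0.0214) and Amacr (0.34, 0.0294). Lower were Acox3 (-0.45, 0.0402), Eci2 (-0.49, 0.0317), Hsd17b10 (-0.38, 0.0125) and Acsm3 (-0.36, 0.0360).

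Among 20 other regulators, 3 were higher and 2 lower after Cre (25%, against 12.9% of all genes in either direction). Their differences ran from -1.09 to 0.82, beyond those of the genes named here. The rule names up to 3 genes that passed, so not all of these are given. Prkaa1, a catalytic subunit of the energy sensor AMPK, was higher by 0.36 (SE 0.05, adjusted p = 0.0110), lost without control replicate 2 (0.0547) or 3 (0.0550). Ppard, the receptor PPARδ, was higher by 0.62 (SE 0.10, adjusted p = 0.0166), and Pprc1, a coactivator related to PGC-1α, was lower at -0.35 (SE 0.06, adjusted p = 0.0232). Ppard was lost without any 1 control (0.0582, 0.0651 and 0.0637 for replicates 1 to 3) or either array of 4 weeks (0.0642 and 0.0708). Pprc1 was lost without any 1 control (0.0704, 0.0885 and 0.0596), replicate 2 of 2 weeks (0.0658) or replicate 2 of 4 weeks (0.0673). Creb3l3, a liver transcription factor that works with PPARα in fasting, differed by 0.06 (adjusted p = 0.311).

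Of 17 other PPARα targets, 2 were higher and 1 lower after Cre (17.6%, against 12.9% of all genes in either direction). Plin2, which coats lipid droplets, was higher by 0.83 (SE 0.12, adjusted p = 0.0137), lost without control replicate 3 (0.0715) or replicate 1 (0.0617) or 2 (0.0604) of 4 weeks. Gpd1, the cytosolic glycerol-3-phosphate dehydrogenase, was higher by 0.43 (SE 0.07, adjusted p = 0.0194). Fabp1, the liver fatty acid binding protein, was lower at -0.21 (SE 0.04, adjusted p = 0.0241). Both were lost without any 1 control (0.0690, 0.0844 and 0.0846 for Gpd1, and 0.0727, 0.0913 and 0.0802 for Fabp1) or either array of 4 weeks (0.0688 and 0.0542, and 0.0637 and 0.0735). Fabp1 was also lost with quantile normalization (0.0645). Cyp4a12a, a fatty acid hydroxylase of male mouse liver, differed by -0.13 (adjusted p = 0.757).

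**Figure D4:**
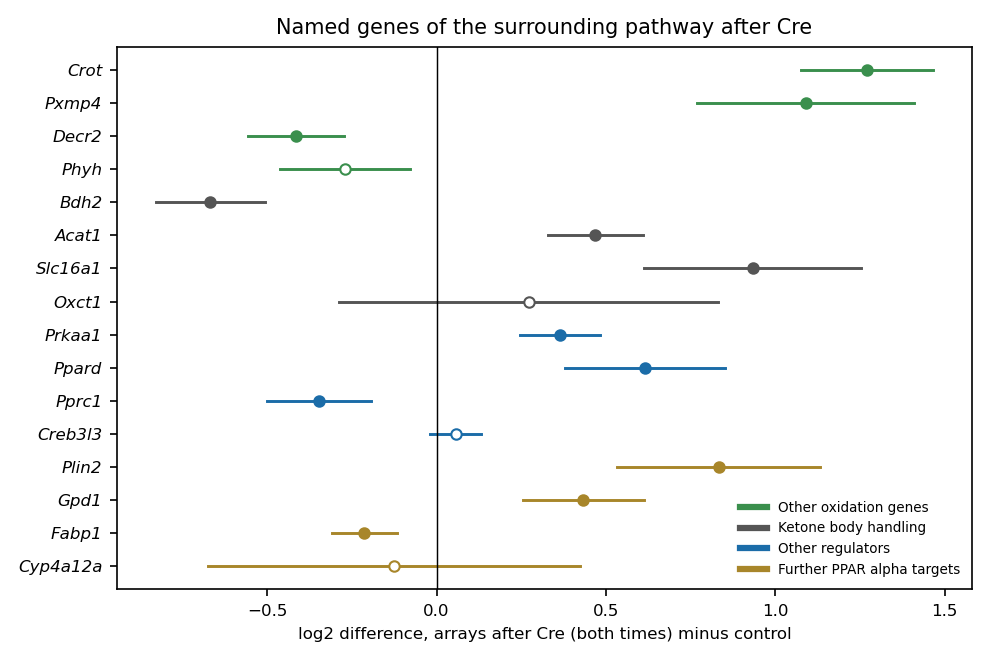
Log2 difference after Cre of the 16 further pathway genes named by rule, with 95% intervals. Slc16a6 and the oxidation genes named after their values were seen are not shown. Filled points passed an adjusted p of 0.05. Crot at 1.27 and Pxmp4 at 1.09 lie highest and Bdh2 at -0.67 lowest among those that passed.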

How the data were processed

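Whole liver RNA of 7 mice (3 control, 2 at 2 weeks, 2 at 4 weeks) was labelled by the Affymetrix whole-transcript sense assay, per the labels' protocols. The authors deposited log2 signals, for each probe set on each array; that they are logarithms was taken from their range (3.15 to 14.7, array medians 7.07 to 7.09). Per the submitters' processing notes, GCOS 1.4 was among the tools; the methods of summarising and scaling are not stated in the sources at hand. No detection calls or scan dates were used. The 3, 2 and 2 arrays limit the precision; the labels call them biological replicates.

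Of 21093 probe sets, 17709 had 1 gene symbol, 187 several and 3197 none; the last groups were left out. In 463 genes the probe set with the highest mean was kept. All 30 measured members matched RefSeq (GRCm38.p6) by gene number. A model of the 3 groups was fitted to all 16819 genes with limma 3.58.1 (R 4.3.3, lmFit and eBayes, 4 residual and 1.69 prior degrees of freedom). Tests were two-sided, with Benjamini-Hochberg adjustment over all genes, and an adjusted p under 0.05 passed. Steps were tested on simulated data. The p-values measure only the spread between these samples. The 95% intervals are not adjusted.

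Members and lists were chosen with earlier results of these data known. Array values are printed for members that passed, for those differing by 0.5 or more (log2) in any of 4 contrasts, and for Ppara, Cpt1a and Bdh1. Of each further list, up to 3 passing genes and the brightest not passing are named by rule. Any others were named after their values were seen. Alternatives were quantile normalization, leaving out the dimmest genes (mean log2 under 6.17), the mean of probe sets, only the groups compared, trend and robust variances, a replicate block and leaving out each array.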

Additional observations from a re-analysis of the deposited data

How the results depend on the processing

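With 2 or 3 arrays a group, calls near the threshold depended on single arrays, while Pdk4 and Pex11a after Cre held in every fit but that with the replicate block. At 2 weeks, 0 members were lower when only the groups compared were fitted. At 4 weeks that fit gave 2 lower (Acaa2 and Pex11a) and 2 higher (Ehhadh and Pdk4, without Acot2). Without the dimmest genes, 3 members were higher at 4 weeks (Acot2, Cyp4a14 and Pdk4). After Cre, 2 members were higher (Acot2 and Pdk4) under quantile normalization, without the dimmest genes and with trend and robust variances. Those lower were 4 under quantile normalization (Acaa2, Acads, Pex11a and Vnn1) and 3 without the dimmest genes (Acads, Pex11a and Vnn1), where 20.4% of the remaining genes were called. Leaving out each array in turn gave 0 to 1 higher and 0 to 2 lower at 2 weeks, 0 to 2 higher and 0 to 2 lower at 4 weeks, and 1 to 2 higher and 1 to 3 lower after Cre. Where this left 1 array in a group, that array was assumed to vary like the others. No member that passed changed sign in any fit. Of the named genes not passing, Oxct1 ranged from -0.079 to 0.67 at 2 weeks and from -0.0042 to 0.50 at 4 weeks over these fits. Ehhadh ranged from -0.060 to 0.46 at 2 weeks. Cyp4a12a ranged from -0.54 to 0.069, from -0.36 to 0.32 and from -0.30 to 0.044 (2 weeks, 4 weeks, after Cre). With the replicate number as a block, 0 members were higher and 0 lower in limma in each comparison (7, 10 and 9 at an unadjusted p under 0.05 at 2 weeks, 4 weeks and after Cre), and 0, 2 and 5 of all genes were called. Deviations of same-numbered arrays from their group means correlated between -0.065 and 0.111. In a group of 2 arrays these deviations mirror each other, so the values cannot decide whether the replicate numbers mark pairs.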

Other observations

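Relatives of the 4-week members, chosen after their values were seen, were also higher at 4 weeks without passing in limma: Acot3, a peroxisomal thioesterase (0.93, adjusted p = 0.0649), Acot4, another (0.69, adjusted p = 0.0760), and Cyp4a31 (0.97, adjusted p = 0.0674). They may share probes with Acot2, Cyp4a10 and Cyp4a14. Ppargc1a had a second probe set, which read 5.97, 5.95 and 6.39 in controls, 6.15 and 6.99 at 2 weeks and 6.73 and 6.39 at 4 weeks, again with overlapping groups.

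In 12576 of 21093 probe sets (59.6%), and in 9 of the 30 members, a value was repeated to all its printed decimals on 2 or more arrays. Fgf21, Cpt2 and Hsd17b4 read the same on both arrays of 4 weeks, at 6.10, 10.25 and 12.22. Ppara and Hadha did so on control replicates 1 and 3. Repeats inside a group narrow its spread, and their effect on the intervals and p-values was not tested.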
